A study of Drosophila melanogaster with 4 samples.

Results

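The middle of the Drosophila melanogaster X chromosome, from 5 to 19.4 Mb on FlyBase release 5, was described by the clusters of enriched H3K9me1 that lay on it. Members were all regions typed as enriched whose midpoint fell within that stretch. Replicate 1 held 1786 such clusters of 15404 in its whole list, replicate 2 held 1685 of 14643, and the list for the whole series held 2749 of 21525. The stretch was set beside the interiors of arms 2L, 3L and 3R, from which 1 Mb at the telomeric end and 3 Mb at the centromeric end were left out. These interiors were 19.0, 20.5 and 23.9 Mb long, against 14.4 Mb for the middle X.

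The study profiled monomethylated lysine 9 of histone H3 by ChIP-seq, in which fragments bound by an antibody are sequenced, in head nuclei of wild-type, mixed adult flies of the Oregon-R-modENCODE strain. It had 2 ChIP libraries, made with an antibody labelled H3K9me1 (new lot 2), and 2 input libraries, used for calling clusters in the ChIP library of the same number. All libraries shared genotype, stage and tissue, so no treatment was compared. A head holds neurons, glia, eye, fat and muscle nuclei, and the labels give no sex.

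Methyl groups are added to this lysine stepwise. The di- and trimethylated forms are bound by the heterochromatin protein HP1a and mark the chromatin around centromeres, whereas the monomethylated form is a product on the way to them and is also found on chromosome arms. The X is the sex chromosome that males carry in a single copy, and in males the MSL complex binds its active genes and acetylates histone H4 there.

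The deposited values were positions of clusters and a score for each. The score was the authors', its scale is unknown here, and it served to describe, rank and filter clusters. Where scores of different lists stand side by side, it was not checked that the lists share a scale. Read depth is unknown, so a stretch without a cluster is a stretch without a call. Coverage, number, width and matching of clusters also rest on calls. Whether these were equally sensitive on X and on the autosomes was not tested. The labels do not tie the replicates to separate cultures of flies, and their spread may be technical. Regions of the same libraries were compared, so the unit of error was the replicate: an exact sign-flip permutation test over 2 paired differences cannot go below a two-sided p of 0.5, and the differences below are therefore descriptions, given for each replicate with their SD. Genes were not assigned, because the gene table used here is on release 6.

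In both replicates the middle X carried fewer and shorter H3K9me1 clusters per length of sequence than each of the 3 autosomal interiors. Clusters covered 30.1% of its bases in replicate 1 and 27.3% in replicate 2, a mean of 28.7 ± 1.94% (SD, n = 2). The interiors were covered to 34.5 to 37.6% in replicate 1 and to 30.1 to 32.9% in replicate 2, so the groups did not overlap within either library. The difference of the middle X from the mean of the interiors was -5.01 ± 1.17 percentage points (SD, n = 2), larger than its SD between replicates. The ranges of the 2 libraries meet, since the middle X in replicate 1 matched the lowest interior in replicate 2.

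Both the number and the mean width of clusters were lower. There were 124.0 clusters per Mb in replicate 1 and 117.0 in replicate 2, against 128.4 to 138.4 and 119.5 to 132.2 on the interiors. Relative to the mean of the interiors, coverage was 0.853 ± 0.0210 (SD, n = 2), cluster number per Mb was 0.940 ± 0.00240 and mean cluster width was 0.907 ± 0.0197. Mean width was 2426 and 2337 bp on the middle X, against 2716 and 2537 bp over the interiors.

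The size and direction of the coverage difference depended on which clusters were counted and on how a score threshold was set. When clusters scoring below the median of their whole list were dropped, the middle X was covered to 25.2% and the interiors to 19.3%, and it held 98.5 clusters per Mb against 53.3, the opposite order. That threshold kept more clusters on the middle X, where scores were higher. With the median score taken within each region instead, the order stayed as in the full lists. Coverage was then 17.8% on the middle X and 21.9% over the interiors, a difference of -4.06 ± 1.11 percentage points (SD, n = 2). In the series list, the authors' pooled set, coverage was 53.6% on the middle X and 53.2 to 56.3% on the interiors, so it lay within their range. The number per Mb in that list, 190.9, also lay within the 185.0 to 191.1 of the interiors.

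The neighbouring stretch of X on the telomere side, from 1 to 5 Mb, was covered to 39.4% in replicate 1 and 35.5% in replicate 2, above the middle X in each. It held 13 clusters of at least 10 kb among 532 in replicate 1 and 6 among 506 in replicate 2.

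Clusters on the middle X were short, and their widths differed from the interiors mostly at the wide end. Widths ran from 1301 to 11984 bp in replicate 1, with a lower quartile of 1566, a median of 1968 and an upper quartile of 2727.5 bp. In replicate 2 they ran from 1302 to 13571 bp, with quartiles of 1531, 1924 and 2639 bp. The shortest cluster of each interior was 1301 or 1302 bp wide, so the regions shared their lower end.

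Medians on the interiors were 2041 to 2064 bp in replicate 1 and 1960.5 to 1989 bp in replicate 2, and the difference of the middle X from their mean was -65.4 ± 24.4 bp (SD, n = 2). Among clusters scoring at or above the median of their whole list the medians were 2086 bp on the middle X and 2911 bp over the interiors. That threshold kept more clusters per Mb on the middle X, where scores were higher. With the median score taken within each region, median widths were 2412.5 and 2715 bp. In the series list, without a threshold, they were 2058 and 2051 bp. The 95th percentile of width was 5127 and 4805 bp on the middle X, against 5969 to 6421 and 5346 to 5901 bp. The gap between the middle X and the interiors was thus wider at the 95th percentile than at the median in each replicate.

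Clusters under 2 kb made up 51.4% of the middle X members in replicate 1 and 54.2% in replicate 2. Those of 2 to 3 kb made up 27.9% and 27.2%, and those of 3 to 5 kb made up 15.4% and 13.9%. Clusters of at least 5 kb numbered 94 and 79, or 5.26% and 4.69% of members, below the 8.39 to 9.24% and 6.08 to 7.45% on the interiors. They held 15.1% and 13.4% of the clustered bases, against 24.3% and 19.4% on average over the interiors.

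**Figure D1:**
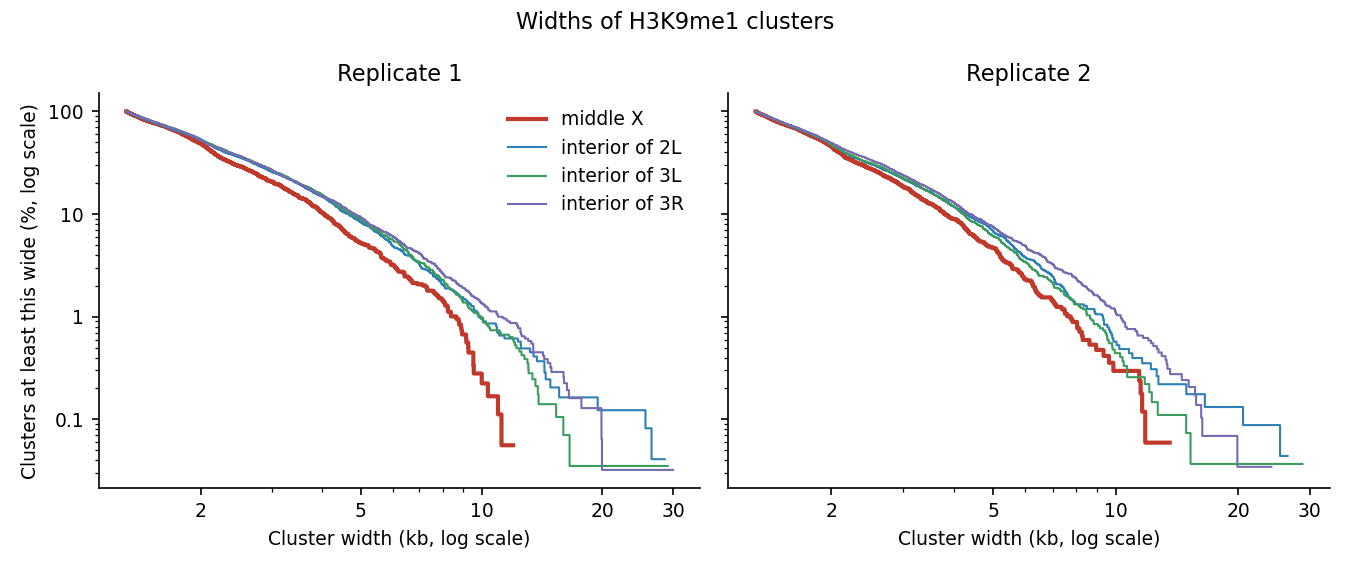
Share of H3K9me1 clusters at least as wide as the value on the x axis (kb, log scale; y axis in percent, log scale) on the middle X and on 3 autosomal interiors, with replicate 1 on the left and replicate 2 on the right. The curve of the middle X runs below the others for most widths above 2 kb and ends at 11984 bp and 13571 bp, where the interiors reach beyond 24 kb.

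Wide clusters, of at least 10 kb, were few on the middle X. Each replicate held 5, or 0.280% of members in replicate 1 and 0.297% in replicate 2. Over all sequences of the lists, 1.31% and 0.908% of clusters were as wide. The interiors of 2L, 3L and 3R held 24, 27 and 42 in replicate 1, and 13, 12 and 32 in replicate 2. Per cluster, their shares were 0.950 to 1.35% and 0.442 to 1.10%, so the middle X lay below all of them in both replicates, by a margin in replicate 2 that rests on 5 clusters against 12 on 3L. No middle X cluster reached 20 kb in a replicate, whereas each interior held 1 to 3 that did.

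The wide clusters were chosen for naming after their values were seen, because each replicate held only 5. The widest in replicate 1 lay at X 10264898 to 10276881, was 12.0 kb wide, and matched a cluster of 11.6 kb in replicate 2 that covered 96.2% of it. The next lay at X 12144711 to 12155920 (11.2 kb), matched by 11.4 kb in replicate 2. A close pair followed at X 7110167 to 7121152 (11.0 kb) and X 7095341 to 7105709 (10.4 kb), whose replicate 2 counterparts were 13.6 and 11.5 kb wide and were the widest and the fourth widest there.

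These 4 places were wide in both libraries. Replicate 1 also had a 10.0 kb cluster at X 19343020 to 19353029, close to the proximal edge of the stretch, where replicate 2 had 2 clusters of at most 7.15 kb that together covered nearly all of it. Replicate 2 had an 11.8 kb cluster at X 13810540 to 13822357, 99.4% of which lay under 2 replicate 1 clusters, the wider of 9.15 kb. In both exceptions the sequence was therefore called in each library and differed in how it was split. Just under 10 kb, the next widest were 9.56 kb in replicate 1 and 9.87 kb in replicate 2.

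In the series list 50 of the 2749 middle X clusters were at least 10 kb wide, or 1.82%, against 1.92 to 2.56% on the interiors and 2.76% of all series clusters. The widest that overlapped both replicates lay at X 8100402 to 8120464 and spanned 20.1 kb. Replicate 1 covered 89.0% of it with 3 clusters and replicate 2 covered 83.1% with 4, none wider than 8.91 kb. The others were X 12198853 to 12216927 (18.1 kb), X 13777229 to 13794800 (17.6 kb), X 13809405 to 13826019 (16.6 kb) and X 7062834 to 7079029 (16.2 kb). Each was made up of 2 to 5 clusters per replicate, which covered 65.2 to 93.0% of it. The widest series regions on the middle X were thus stretches of neighbouring replicate clusters rather than single ones.

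Some of these regions lay close together. Those starting at 13777229 and 13809405 were near each other, and that starting at 7062834 lay shortly before the close pair of wide replicate clusters. Across all neighbouring clusters, however, widths were nearly unrelated, with Spearman's rho of 0.0865 in replicate 1 over 1785 neighbouring pairs and 0.0314 in replicate 2 over 1684. The interiors averaged 0.103 and 0.0823.

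Neighbouring clusters lay farther apart on the middle X than on the interiors. The median gap, from the end of a cluster to the start of the next, measured 3047 bp in replicate 1 against 3260 bp in replicate 2. On the interiors it was 2198.5 to 2508 bp and 2468 to 2865 bp, and the middle X exceeded the mean of the interiors by 624 ± 72.6 bp (SD, n = 2). The quartiles were 1082 and 7212 bp in replicate 1, and 1190 and 8063.5 bp in replicate 2. In the series list the median gaps came close together, at 1259 bp on the middle X and 1225 to 1251 bp on the interiors. Without clusters scoring below the median of their whole list the order turned, with median gaps of 4219.5 bp on the middle X and 7787 bp over the interiors. With the median score taken within each region the order stayed, with median gaps of 7578 bp on the middle X and 6360 bp over the interiors.

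The middle X had a smaller share of short gaps and a larger share of those of 10 to 20 kb. Gaps under 1 kb were 23.5% and 22.2% of all gaps on the middle X, against averages of 28.6% and 26.3% on the interiors. Gaps of 10 to 20 kb were 12.9% and 13.7%, against 8.78% and 10.4%. Gaps of at least 20 kb numbered 89 in replicate 1 and 97 in replicate 2. They made up 4.99% and 5.76% of gaps, where over the 5 arms 3.53% and 4.35% were as long. They held 18.2% and 21.2% of the sequence, against 14.0 to 17.9% and 17.1 to 22.2% on the interiors. By this measure the middle X lay slightly above all interiors in replicate 1 and within their range in replicate 2.

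Per Mb these gaps numbered 6.18 and 6.74 on the middle X, against 4.38 to 5.42 and 5.21 to 6.68 on the interiors. In replicate 2 the middle X was only slightly above 2L, the highest of them. In the replicates, gaps of at least 50 kb had the opposite order. There were 3 in replicate 1 and 6 in replicate 2, or 0.208 and 0.417 per Mb, below the 0.487 to 0.753 and 0.681 to 0.842 per Mb of the interiors. Gaps of at least 20 kb in the series list numbered 0.833 per Mb on the middle X. This lay below the average of the interiors in that list, 1.14 per Mb, but within their range of 0.828 to 1.38. That list had 1 gap of at least 50 kb on the middle X, or 0.0694 per Mb, within the 0 to 0.0837 per Mb of the interiors.

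**Figure D2:**
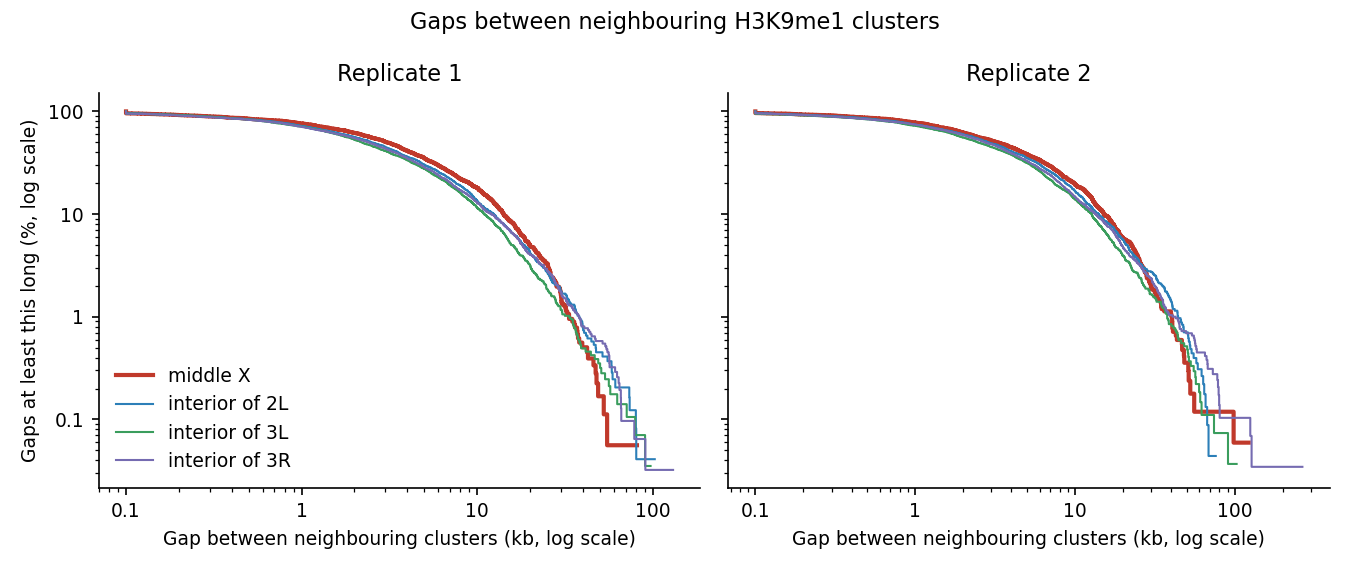
Share of gaps between neighbouring H3K9me1 clusters at least as long as the value on the x axis (kb, log scale; y axis in percent, log scale) on the middle X and on 3 autosomal interiors, by replicate; gaps under 0.1 kb are drawn at 0.1 kb. The middle X curve lies above the others up to about 20 kb and below all of them at 50 kb.

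The longest gaps were chosen for naming after their values were seen. In replicate 1 the gaps of at least 50 kb lay at X 15892438 to 15973665 (81.2 kb), X 16950069 to 17004993 (54.9 kb) and X 7667201 to 7719761 (52.6 kb). Replicate 2 also had a gap at the first place, of 98.2 kb, and at the last, of 51.4 kb. Its longest gap, 122.0 kb at X 14370093 to 14492126, was longer than the longest of 2L and 3L in that replicate, 76.0 and 102.6 kb, and shorter than the 264.6 kb of 3R. It was not empty in replicate 1, which had 8 clusters there over 10.8% of the bases. The other 3 gaps of at least 50 kb in replicate 2 held 3 or 4 replicate 1 clusters each.

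Stretches without a cluster in either replicate gave the gaps that both libraries shared. The middle X had 59 of at least 20 kb, 1.65 Mb in all or 11.4% of its sequence, within the 9.62 to 13.3% of the interiors. It had 1 of at least 50 kb, against 7 on 2L, 5 on 3L and 11 on 3R. That stretch was X 15892438 to 15973543, 81.1 kb long, with 3 series clusters over 6.28% of it.

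The next longest shared stretches were X 7667201 to 7715503 (48.3 kb), X 13264732 to 13312730 (48.0 kb) and X 16324789 to 16371390 (46.6 kb). They were followed by X 8287667 to 8328671 (41.0 kb) and X 18249060 to 18289677 (40.6 kb). Series clusters covered 5.49 to 20.0% of these 5. All 59 shared stretches of at least 20 kb contained some series cluster, with a median coverage of 17.1% and a highest value of 41.2%. Whether reads can be placed uniquely in these stretches was not analysed here.

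Coverage varied less between windows of the middle X, in percentage points, than between those of the interiors. Over 144 windows of 100 kb, coverage in replicate 1 ran from 7.27 to 63.7% with a median of 29.2%, and in replicate 2 from 1.41 to 60.8% with a median of 26.5%. The SD over windows was 11.9 percentage points in replicate 1 and 11.5 in replicate 2, below the 15.1 to 15.5 and 13.7 to 14.8 of the interiors. The difference from their mean was -3.09 ± 0.387 percentage points (SD, n = 2). Divided by the mean of its windows, the SD was 0.397 and 0.420 on the middle X and 0.402 to 0.444 and 0.417 to 0.478 on the interiors. Relative to its level, the middle X was thus about as even as 3L, which had 0.402 and 0.417, and it lay slightly below 3L in replicate 1 and slightly above it in replicate 2.

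Windows of extreme coverage were few. Taking the mean of both replicates, 1 of 144 windows exceeded 60%, against 9 of 190 on 2L, 10 of 205 on 3L and 10 of 239 on 3R. Over the 5 whole arms the share was 5.13%. The cut was the same for all regions, while coverage was 28.7% on the middle X and 33.7% on average over the interiors. The count above 60% is therefore not separate from the lower level of the middle X. Windows under 10% numbered 4, or 2.78%, against 5.26 to 5.86% on the interiors and 7.91% on the whole arms, which include sparse proximal ends. A coverage of 20 to 40% was found in 89 of 144 windows, or 61.8%, against 43.9 to 49.3% on the interiors.

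**Figure D3:**
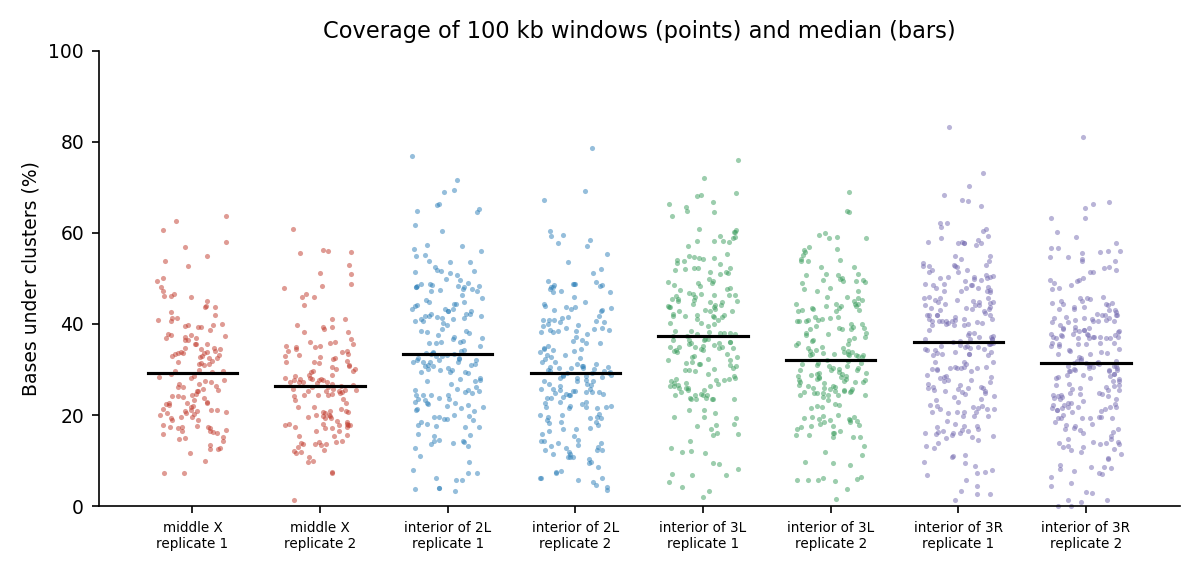
Percent of bases under H3K9me1 clusters in each 100 kb window (points) of the middle X and of 3 autosomal interiors, by replicate, with the median as a bar and a small horizontal scatter to separate points. Points of the middle X end at 63.7% and 60.8%, while each interior reaches at least 68.9%.

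The highest window of the middle X was 12100001 to 12200000, covered to 63.7% in replicate 1 and 60.8% in replicate 2, and it contains the 11.2 kb cluster described above. It was followed by 10500001 to 10600000 at 59.4 ± 4.72% (SD, n = 2), by 7100001 to 7200000 at 57.2 ± 1.26% and by 13800001 to 13900000 at 55.3 ± 0.380%. The windows at 10500001 and 7100001 differed by less than the SD of the former. The window at 7100001 holds the close pair of wide clusters in part, and that at 13800001 holds the 11.8 kb cluster of replicate 2.

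By the mean of both replicates the lowest window was 14400001 to 14500000, where the replicates differed most among the 4 lowest, with 9.83% in replicate 1 and 1.41% in replicate 2. In replicate 1 the windows at 9700001, with 7.27%, and 15900001, with 7.36%, were lower. It lies mostly in the 122.0 kb gap of replicate 2. The next were 9700001 to 9800000 at 7.40 ± 0.185% (SD, n = 2), 15900001 to 16000000 at 8.53 ± 1.65% and 12900001 to 13000000 at 9.92 ± 3.71%. The window at 15900001 overlaps the 81.1 kb shared stretch and was also the lowest of these 4 in the series list, at 15.2%, where the others were covered to 33.2 to 39.5%.

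**Figure D4:**
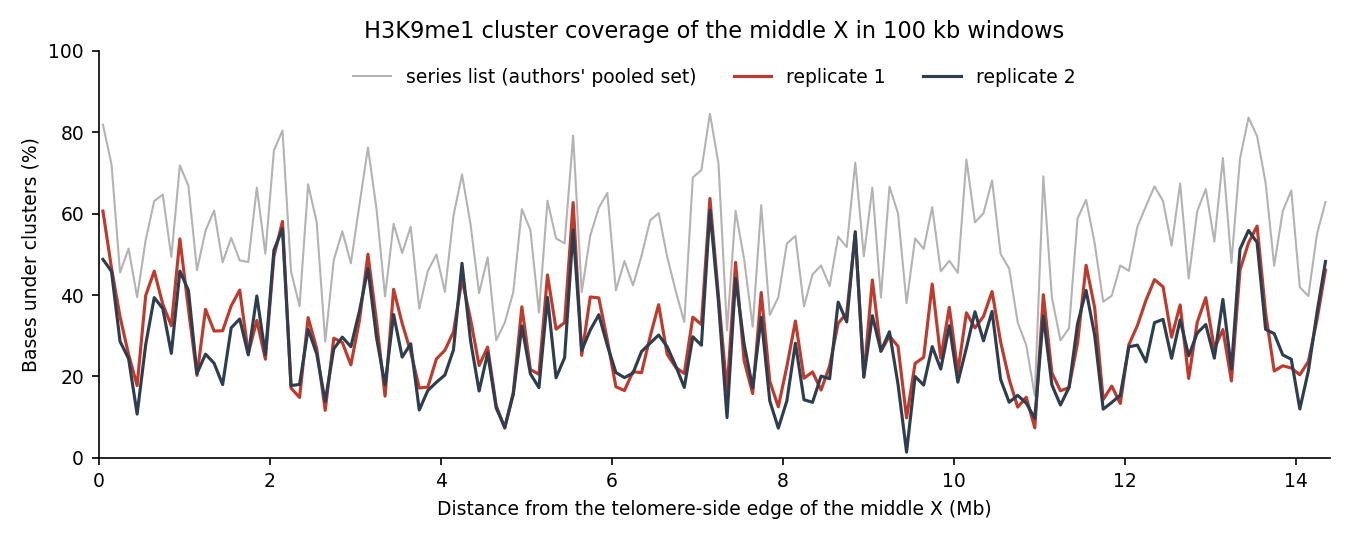
Percent of bases under H3K9me1 clusters in 144 consecutive windows of 100 kb, against distance from the telomere-side edge of the middle X in Mb, for replicate 1, replicate 2 and the authors' series list. The highest window lies 7.1 Mb from the edge in both replicates, the lowest lies 4.7 Mb from it in replicate 1 and 9.4 Mb in replicate 2, and the series list runs above them throughout.

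Over longer distances coverage was high near both ends of the middle X and lower at several places between them. Of 14 windows of 1 Mb, which leave out the last 0.4 Mb, the highest were that from 5 to 6 Mb at 36.4 ± 4.32% (SD, n = 2), 18000001 to 19000000 at 34.6 ± 1.57% and 10000001 to 11000000 at 32.3 ± 3.49%. The lowest were 15000001 to 16000000 at 23.2 ± 2.06%, 16000001 to 17000000 at 24.0 ± 1.71% and 11000001 to 12000000 at 24.5 ± 0.246%. The 3 lowest differed from one another by less than the largest of their SDs, and so did the 3 highest.

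In 3 sections of 4.8 Mb from the telomere side, replicate 1 covered 31.3%, 29.1% and 29.8%, and replicate 2 covered 28.5%, 26.2% and 27.3%. Median widths in the sections were 1959 to 1984.5 bp and 1898.5 to 1960 bp. The wide end varied more. Clusters of at least 5 kb were 4.85%, 5.21% and 5.74% of those in the sections in replicate 1, and 4.58%, 3.94% and 5.52% in replicate 2, and clusters of at least 10 kb numbered 2, 2 and 1 in replicate 1 and 2, 3 and 0 in replicate 2. Coverage of neighbouring 100 kb windows was weakly related, with Pearson's r of 0.273 over the mean profile and 0.0270 for windows separated by a further window. The interiors had 0.296 to 0.380 and 0.0952 to 0.198.

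Replicates matched less closely on the middle X than on the interiors. The bases covered in both were 20.2% of the sequence and those covered in either were 37.2%, which gives a Jaccard index, the quotient of these shares, of 0.544. On 2L, 3L and 3R the index was 0.629, 0.650 and 0.643. It is a single value per region and has no SD. Among clusters scoring at or above the median of their whole list the regions came closer, with 0.512 on the middle X and 0.528 over the interiors. That threshold left the middle X with more coverage than the interiors, 25.2% against 19.3%. With the median score taken within each region the index was 0.437 on the middle X and 0.548 over the interiors. When the highest-scoring clusters up to 20% coverage were taken in every region, a setting added after the data were seen, the index was 0.460 on the middle X and 0.537 on average over the interiors.

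Window profiles also correlated less closely between replicates on the middle X. Across the 144 windows, which come from the same libraries and inputs, Pearson's r between replicates was 0.918 and Spearman's rho 0.902, against an r of 0.952 to 0.961 on the interiors. The range of coverage was also narrower on the middle X. Of the 14 highest windows in each replicate, 12 were shared, but of the 14 lowest only 7 were. On 2L 15 of 19 lowest windows were shared, on 3L 16 of 20 and on 3R 20 of 24. Of the highest, 17 of 19 were shared on 2L, 16 of 20 on 3L and 20 of 24 on 3R, and the share on the middle X lay within theirs.

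The unmatched clusters were narrow. Of middle X clusters, 74.2% in replicate 1 and 79.3% in replicate 2 shared at least 1 bp with a cluster of the other replicate, against 76.6 to 78.1% and 85.5 to 87.1% on the interiors. Among clusters of at least 5 kb the share was 100% in both replicates and in all 4 regions. Among those under 2 kb it was 59.5% in replicate 1, where the interiors had 59.2 to 59.9%, and 67.5% in replicate 2, where they had 74.2 to 77.6%. Among clusters under 2 kb the lower match of the middle X was therefore seen in replicate 2 and not in replicate 1. At 2 to 3 kb it was seen in both, with 84.4% against 86.7 to 88.5% in replicate 1 and 89.7% against 94.9 to 95.3% in replicate 2. At 3 to 5 kb the middle X also lay below, with 96.4% against 96.7 to 98.3% and 97.9% against 98.8 to 99.5%. These shares rest on 275 and 235 middle X clusters, and the margin to 2L, the lowest interior, was small. The 460 and 349 unmatched clusters had median widths of 1570 and 1494 bp.

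The scores of middle X clusters were higher than those of interior clusters of the same width. Clusters under 2 kb had a median score of 0.663 in replicate 1 and 0.633 in replicate 2, against averages of 0.487 and 0.494 on the interiors. In replicate 1 the difference was 0.176 under 2 kb, 0.184 at 2 to 3 kb, 0.176 at 3 to 5 kb and 0.174 at 5 to 10 kb. In replicate 2 it was 0.139, 0.150, 0.155 and 0.153 in the same classes. The difference hardly moved with width up to 10 kb, and in the widest class it rests on 5 middle X clusters per replicate.

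Interior clusters of 2 to 3 kb had median scores averaging 0.628 in replicate 1 and 0.612 in replicate 2, and those of 3 to 5 kb averaged 0.685 and 0.663. In each replicate the median of middle X clusters under 2 kb lay between these values. Over all widths the median was 0.746 and 0.705 on the middle X, which exceeded the mean of the interiors by 0.155 ± 0.0180 (SD, n = 2). Even the lower quartile on the middle X, 0.648 and 0.616, lay above the mean of the interior medians, 0.578 and 0.562. Whether calls had the same lowest score in all regions was not tested. Among clusters scoring at or above the median of their whole list the excess was 0.0698. That threshold selects on the score itself and kept 98.5 clusters per Mb on the middle X and 53.3 over the interiors. The smaller excess is therefore not a separate result. The median score of all middle X clusters varied little along the stretch, from 0.745 to 0.747 over the 3 sections in replicate 1 and from 0.702 to 0.708 in replicate 2. The stretch from 1 to 5 Mb on X had medians of 0.784 and 0.750. Width and score rose together within the middle X, with Spearman's rho of 0.638 over 1786 clusters and 0.609 over 1685.

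**Figure D5:**
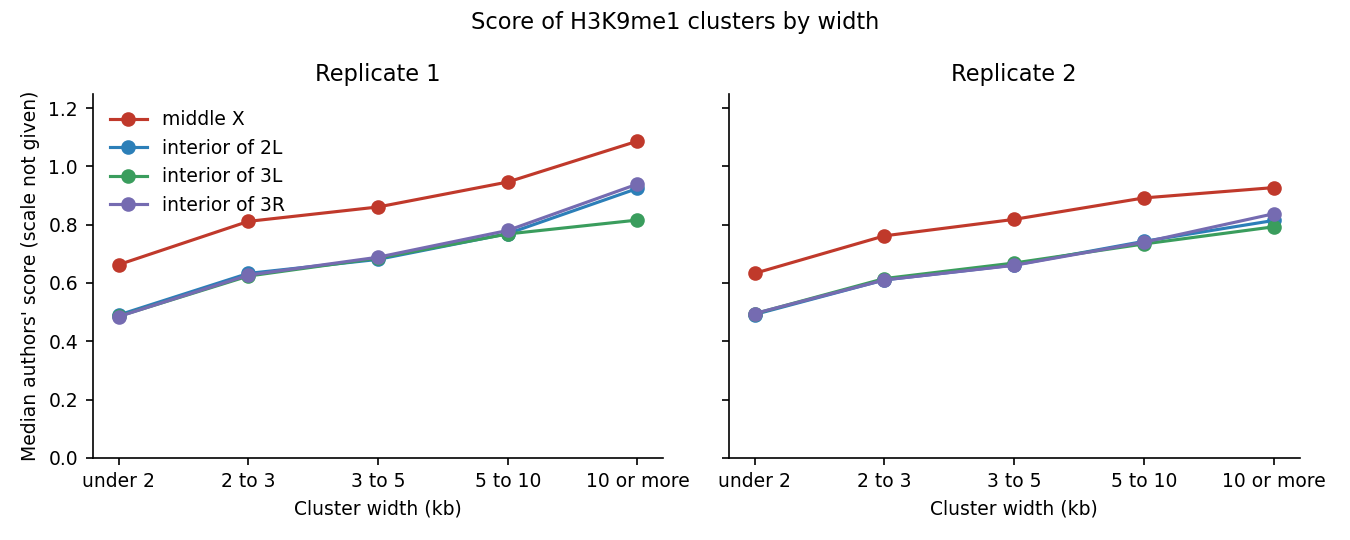
Median authors' score of H3K9me1 clusters by width class (kb) on the middle X and on 3 autosomal interiors, by replicate; the scale of the score was not given. The middle X lies above the interiors in every class, from 0.663 under 2 kb to 1.09 at 10 kb or more in replicate 1, and the widest class holds 5 middle X clusters per replicate.

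The highest-scoring series clusters that overlapped both replicates were narrower than the widest ones, and no cluster was in both groups of 5. The first lay at X 16414119 to 16420092 and was 5.97 kb wide, and it scored 1.20 in the series list, 1.30 in replicate 1 and 1.24 in replicate 2. The next was X 18430207 to 18440417 (10.2 kb, series score 1.19), which each replicate had as 2 clusters with top scores of 1.45 and 1.40. It was followed by X 10834754 to 10842861 (8.11 kb, 1.17), X 8417027 to 8424564 (7.54 kb, 1.14) and X 14074322 to 14077983 (3.66 kb, 1.13). Each replicate covered at least 85.3% of every region among these 5. Replicate 1 scored higher than replicate 2 at all of them. This was not particular to these regions, since its median score was also higher over the middle X, 0.746 against 0.705, and on each interior.

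The series list added more to the middle X than to the interiors. Its coverage was 1.87 times the mean of the replicates on the middle X and 1.60 to 1.65 times on the interiors. Of its middle X bases, 37.8% lay under clusters of both replicates, 31.2% under those of 1 and 31.1% under none, against 46.8 to 49.3%, 26.0 to 27.1% and 24.7 to 26.1% on the interiors. The 958 middle X series clusters that touched no replicate cluster were 34.8% of the list there and had a median width of 1298 bp. On the interiors 29.9 to 32.0% touched none. How the replicates were combined is unknown here, and the origin of the added clusters was not tested.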

How the data were processed

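Per the labels, chromatin of fly heads was crosslinked with formaldehyde, sonicated and immunoprecipitated. The aligner was Bowtie 0.12.7, as the submitters' processing notes state, and positions are on FlyBase release 5, per the file headers. The authors deposited, for each cluster, a signed score; no scale, cluster caller or threshold is given in the sources used here. Read counts were not analysed here, so depth is unknown.

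Coverage counted bases under enriched clusters, cut at the edges of each region; numbers, widths, gaps and scores used clusters by midpoint. Lengths came from the file headers. Values were taken per replicate, then as mean ± SD over 2 replicates; the series list stood as a pooled set of the authors, without n. Interval calculations were tested on 20 simulated lists. Named regions were the 5 widest and 5 highest-scoring series clusters overlapping both replicates, the 6 longest shared cluster-free stretches, the 4 highest and 4 lowest windows of 100 kb, the 3 highest and 3 lowest of 1 Mb, and any depleted region. The members, lists and measures were chosen with earlier results of these data known. Alternatives covered score, list, joining, bounds, arms, thresholds, window width and replicates. Python 3.11.15, NumPy 2.4.6, pandas 2.3.3, SciPy 1.17.1 and Matplotlib 3.10.9 were used.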

Additional observations from a re-analysis of the deposited data

Results flagged for a closer look

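The series list held 31 regions that the authors typed as depleted, and 1 of them lay on the middle X, at 16456557 to 16458175, with a score of -0.0263 and a width of 1.62 kb. It stands out because the comparisons above use only enriched clusters. Replicate 1 had no enriched cluster there, the nearest being 2.91 kb away. Replicate 2 had a 1.38 kb enriched cluster over 84.9% of it, with a score of 0.263, which only 1.03% of its list fell below. Neither replicate list typed the place as depleted.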

How the results depend on the processing

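Values are the middle X minus the mean of the interiors. Of 81 alternative values for 9 measures, 44 moved by no more than the spread between replicates or kept near the main value, 29 moved further and 8 changed sign. The 44 include every value with a replicate left out. With 2 replicates such a value always lies within that spread, so its place in the count was fixed in advance. Leaving out a replicate changed no sign, which cannot show stability with 2 replicates. With clusters of at least the median score of their whole list, coverage reversed to 5.87 percentage points, clusters per Mb to 45.3, median spacing to -3568 bp and gaps of at least 20 kb per Mb to -3.37; median width was -825.5 bp, the share of wide clusters -1.80 points, the SD over windows -1.67, the score difference 0.0698 and the Jaccard difference -0.0162. That threshold keeps more clusters on X, where scores are higher, and the score difference is then taken over clusters selected by score. When a separate threshold was used for each region, median width was -303 bp, the wide share -1.21, clusters per Mb -3.88, spacing 1218 bp, long gaps per Mb 1.99 and the Jaccard difference -0.111. In the series list median width reversed to 7.33 bp, clusters per Mb to 3.40 and long gaps per Mb to -0.306; coverage was -1.08, spacing 21.7 bp, the SD over windows -2.32 and the score difference 0.109. Joining clusters at most 500 bp apart gave -106 bp in median width, -1.60 in wide share and -4.01 clusters per Mb. With 1 Mb less at each end of the middle X, median width was -91.2 bp, clusters per Mb -9.61, spacing 789 bp and the SD over windows -3.61. Clusters per Mb were -6.22 with more of the arm ends left out and -9.12 without 3R. By other thresholds, the share of at least 5 kb was -2.83, gaps of at least 10 kb per Mb 4.79, and gaps of at least 50 kb per Mb reversed to -0.384. With windows of 200 kb the SD was -2.68. At 20% coverage in each region, added after the data were seen, the SD was -2.49 and the Jaccard difference -0.0768. Where no construction is named, the cause was not tested. Differences between regions were taken within each replicate. No paired analysis was possible between ChIP and input libraries, because the inputs entered only the cluster calls. Unknown depth limits all statements that rest on calls, which include coverage, number, width, gaps and matches of clusters. Whether calls on X and on the autosomes were equally sensitive was not tested.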
